A study of Mus musculus with 16 samples.

Results

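Feedback inhibitors of the MAP kinase pathways were examined in mouse tumours driven by the EWSR1::ATF1 fusion. The 10 genes were Dusp1, Dusp4, Dusp5, Dusp6, Dusp10, Spry1, Spry2, Spry4, Spred1 and Spred2, taken by name from the 21938 protein-coding genes of the GENCODE vM21 annotation. For each gene, the peaks of 3 ChIP-seq lists were collected within 3 kb of a transcription start site (TSS), in the gene body, and within 50 kb of a TSS, on the mouse build mm10 (GRCm38). The lists were V5 for the fusion (EA1), RNAPOL2 for phosphorylated RNA polymerase II, and H3K27ac for an acetylated histone mark of active promoters and enhancers.

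MAP kinase cascades carry signals from growth factor receptors and stress into the nucleus, and they switch on the genes of their own inhibitors. DUSP phosphatases remove phosphate from the activated MAP kinases ERK, p38 and JNK, whereas Sprouty and SPRED proteins act further up, between the receptors, Ras and RAF. Transcription of several of these genes follows ERK activity, so they are widely read as a record of signalling through the pathway. Some also respond to cAMP through CREB and ATF1, which bind the cAMP response element TGACGTCA, and the fusion keeps the DNA-binding domain of ATF1.

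The tumours grew after hindlimb injection of TATCre, a cell-permeant Cre recombinase, into 4-week-old mice on a mixed background of C57Bl/6 and another inbred strain. Cre removed a loxP-flanked stop cassette, after which a V5-tagged human type 1 EWSR1::ATF1 cDNA and a green fluorescent marker were expressed from the Rosa26 promoter. The labels list 16 tumour samples, 4 each for V5, RNAPOL2, H3K27ac and input, and all carry the fusion, the input samples included, so no sample without it was compared. Each antibody has 1 peak list and no values per sample, so no spread between tumours can be given, and the read depth behind each peak is unknown. In these bulk tumours, a lower score from fewer cells that carry a peak cannot be told apart from a weaker signal in each cell.

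The median score was 230 over the 10665 V5 peaks, 246 over the 20375 RNAPOL2 peaks and 212 over the 27552 H3K27ac peaks. Scores are whole numbers given by the authors on an unstated scale and are compared only within a list, with rank 1 for the highest. As a check of the tissue, promoter peaks of RNAPOL2 were found at 2 of 6 neural crest and melanocytic markers (Mitf and Pmel), 0 of 6 skeletal muscle markers, 1 of 4 immune, 1 of 3 endothelial and 1 of 3 fibroblast markers. H3K27ac promoter peaks were found at 3 of 6 melanocytic markers, 0 of 6 muscle markers and all 10 markers of the other 3 classes. The melanocytic markers Sox10, Mlana and Tyr had a promoter peak in neither list, and the part of other cell types in the results was not tested.

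All 10 feedback genes had an RNAPOL2 promoter peak and all 10 had an H3K27ac promoter peak, whereas 53.5% and 58.6% of coding genes did. A V5 promoter peak was present at 6 of 10, namely Dusp1, Dusp5, Dusp6, Dusp10, Spry2 and Spred1, beside 16.6% of all coding genes. Since each of these 6 also had the other marks, 6 of 10 had a promoter peak in all 3 lists, beside 15.9% of coding genes. The 4 without a V5 promoter peak were Dusp4, Spry1, Spry4 and Spred2. The study speaks of many more fusion sites than the deposited V5 list holds, so the absence of a peak, a rank or a share here refers to this list only.

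The V5 peaks at these promoters had low scores apart from Dusp1. Dusp1 had a highest V5 promoter score of 931, followed by Dusp10 at 179, Spred1 at 174, Dusp5 at 156, Dusp6 at 103 and Spry2 at 94. The median over the 9 V5 promoter peaks was 140, and only the Dusp1 peak lay above the list median of 230. Over all coding genes with a V5 promoter peak, the median of the highest score was 196.

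Within their own lists, the RNAPOL2 and H3K27ac promoter scores differed widely among the 10 genes. The highest RNAPOL2 promoter score was 7795 at Dusp1, 5677 at Dusp6, 2416 at Dusp10, 1884 at Spred1, 1603 at Spry2, 838 at Dusp5, 755 at Spry4, 448 at Spry1, 365 at Spred2 and 233 at Dusp4. The 5 highest lay above the median of 912 over coding genes with an RNAPOL2 promoter peak. The highest H3K27ac promoter score was 5058 at Spred1, 4079 at Dusp1, 3696 at Dusp6, 3239 at Dusp10, 1996 at Spry2, 1481 at Spred2, 355 at Spry4, 334 at Spry1, 281 at Dusp5 and 140 at Dusp4. The same 5 genes and Spred2 lay above the median of 863 over coding genes with an H3K27ac promoter peak. Without replicate values, neighbouring scores in these orders cannot be separated.

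**Figure D1:**
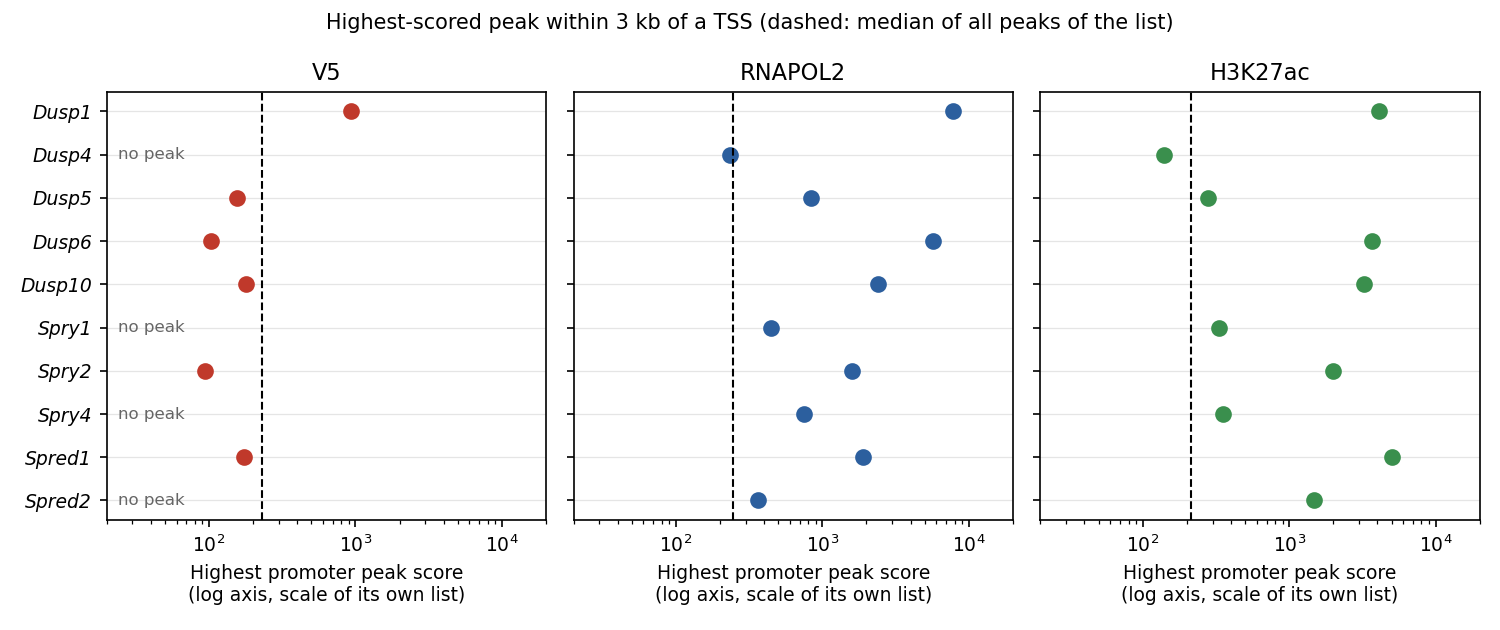
Each point is the highest peak score within 3 kb of a TSS of the gene (log axis, 1 panel per list, each on the scale of its own list), the dashed line is the median of all peaks of that list, and genes without a promoter peak are marked. In the V5 panel only Dusp1, at 931, lies right of the dashed line, whereas 10 genes have points in the RNAPOL2 and H3K27ac panels.

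Dusp1 encodes an inducible nuclear phosphatase of p38, JNK and ERK and is a classic immediate early gene. It is annotated at chr17:26505590-26562128 on the minus strand (ENSMUSG00000024190.7) with 6 TSSs, of which 4 lie together between positions 26507723 and 26508519 and 2 lie farther upstream, at 26561499 and 26562128, beside the start of Ergic1. The V5 peak over 3 of the group of 4 TSSs (chr17:26507931-26509250, score 931, rank 1342 of 10665) held TGACGTCA at chr17:26508608-26508615, 21 bp from the middle of the peak. The stretch upstream of the first TSS of the group is shown because it carries this element, with TGACGTCA and the shorter TGACG in capitals (minus strand, chr17:26508520-26508722, GRCm38, from the RefSeq promoter table).
Dusp1 promoter: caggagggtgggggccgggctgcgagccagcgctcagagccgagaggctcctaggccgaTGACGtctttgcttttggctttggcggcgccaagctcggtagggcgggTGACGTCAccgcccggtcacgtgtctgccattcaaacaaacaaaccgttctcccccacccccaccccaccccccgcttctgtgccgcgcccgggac
TGACGTCA begins 96 bases before that TSS and TGACG begins 144 bases before it.

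RefSeq promoters, taken from 250 bases before to 50 bases after a RefSeq TSS on GRCm38, were matched for 8 of the 10 genes, all but Dusp4 and Spry4. At Dusp1 this window lies at the group of 4 TSSs, and at Dusp10 at the downstream of its TSSs, not at the outermost TSS. TGACGTCA was found in the Dusp1 promoter alone among these 8, beside 1.79% of the 32851 promoters in the table. TGACG, searched on both strands and contained in every TGACGTCA, was found at Dusp1, Dusp5 and Spred2, beside 20.8% of the promoters. These matches describe the letters in a window and not a bound site.

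Among the 10665 V5 peaks, 8.51% held TGACGTCA, 40.3% another match to TGANNTCA, 26.0% the AP-1 motif TGAGTCA, 10.2% a string of more than 4 TGA or TCA units with gaps of at most 5 bp, and 70.9% the shorter TGACG. All were searched on both strands. TGANNTCA here excludes TGACGTCA, TGAGTCA is of another length and may overlap a neighbouring match, and a string may include any of them. Of the 31 V5 peaks within 50 kb of the feedback genes, 3 held TGACGTCA, 10 another TGANNTCA, 7 TGAGTCA, 1 a string and 19 TGACG. The 3 peaks with TGACGTCA were the Dusp1 promoter peak, a peak in the long Dusp1 record and a distal Spry2 peak.

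With all its TSSs counted, Dusp1 also had the largest number of V5 peaks. There were 12 within 50 kb of its TSSs, a number reached by 0.0729% of coding genes. When the 2 upstream TSSs were left out, 6 lay within 50 kb, a number reached by 1.31% of coding genes. That is fewer than the 7 at Dusp6 and as many as the 6 at Dusp10, so the first place of Dusp1 rests on the upstream TSSs. A V5 peak within 50 kb was present at 7 of the 10 feedback genes and at 41.3% of coding genes. Peaks in the body outside the promoter window were found at Dusp1 alone, beside 7.10% of coding genes, and all 5 lay in introns of the 56.5 kb record that starts beside Ergic1.

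The 5 Dusp1 body peaks had scores of 428, 402, 122, 636 and 376, in order away from the group of 4 TSSs. The peak of score 636 (chr17:26537921-26538560) held TGACGTCA 41 bp from its middle. It is shown for comparison with the promoter, with TGACGTCA in capitals (plus strand, chr17:26538252-26538311, GRCm38).
Dusp1 intron: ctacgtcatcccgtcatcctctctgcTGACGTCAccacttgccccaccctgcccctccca
This peak lay 22.9 kb from the nearest Dusp1 TSS and as far from the nearest Ergic1 TSS.

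Beyond the upstream TSSs of Dusp1, 5 flanking V5 peaks had scores of 218, 131, 402, 122 and 955, and all lay in introns of Ergic1. The highest of these, 955, lay 301 bp from an Ergic1 TSS and 44.3 kb from the nearest Dusp1 TSS. A V5 peak of score 140 lay over a TSS of Dusp1 and a TSS of Ergic1. In all, Ergic1 had the nearest coding TSS for 5 of the 12 peaks, so the count for Dusp1 includes peaks that lie nearer to its neighbour.

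RNAPOL2 over Dusp1 formed a single peak of 7.69 kb (chr17:26502111-26509800, score 7795, rank 61 of 20375). It covered 100% of the 2.93 kb transcript that starts at the group of 4 TSSs and ran 3479 bp past the gene end. Only 0.246% of coding genes had a promoter RNAPOL2 score at least as high. The H3K27ac peak there was 7.89 kb wide with a score of 4079 (rank 385 of 27552). At the upstream TSSs, the RNAPOL2 score was 1118 and the H3K27ac score 1710, both lower than at the group of 4.

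H3K27ac peaks no more than 12 kb apart were joined into stitched regions. The gene start, defined as the outermost TSS of the record, lay in a region of at least 3 peaks at 2 of the 10 genes, Dusp1 and Dusp6, beside 12.3% of coding genes. The outermost TSS of Dusp1 lay in the widest of the 2450 such regions, which measured 134.43 kb, overlapped Atp6v0e, Dusp1 and Ergic1, and held 23 H3K27ac, 14 V5 and 17 RNAPOL2 peaks. The group of 4 Dusp1 TSSs lay in a separate region of 25.39 kb with 4 H3K27ac and 2 V5 peaks. At Dusp10 the internal TSS, which carries its promoter peaks, lay in a region of 19.53 kb with 3 H3K27ac peaks and 1 V5 peak. Its gene start lay outside that region. Read signal did not enter this stitching, so it ranks no region as a super-enhancer.

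The coding genes most like Dusp1 in rank percentile of the highest promoter score over the 3 lists were Hist1h1c, Sar1a and Tpt1. Their Euclidean distances from Dusp1 were 3.47, 5.85 and 6.92 percentile points among the 3484 coding genes with a promoter peak in all 3 lists. Hist1h1c, a linker histone gene, had scores of 906 for V5, 10407 for RNAPOL2 and 3656 for H3K27ac.

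Dusp6 encodes the cytoplasmic phosphatase that acts on ERK and is a standard transcript for ERK output. It is a gene of 4.26 kb at chr10:99263231-99267489 on the plus strand (ENSMUSG00000019960.8). Its promoter V5 peaks had low scores, 67 and 103, whereas peaks farther upstream had 3 of the 4 highest scores among the 31. Those of score 3057 (rank 223), 1259 (rank 888) and 2653 (rank 284) lay 6.74, 11.6 and 18.8 kb upstream. A further pair, of scores 113 and 722, lay 24.1 and 25.5 kb upstream. By their middle base, both lay within annotated genes other than Dusp6, the 722 peak in introns and the 113 peak in an exon. The 7 V5 peaks within 50 kb were a number reached by 0.729% of coding genes, and Dusp6 had the nearest coding TSS for each.

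None of the 7 V5 peaks at Dusp6 held TGACGTCA. The peak of score 3057 held 1 TGANNTCA match, 440 bp from its middle, and TGACG 7 times. The peak of score 1259 held TGAGTCA 68 bp from its middle, and the peak of score 2653 held TGACG 3 times but neither TGANNTCA nor TGAGTCA. The 120 bases at the middle of the peaks of score 3057 and 2653 are shown because these high-scored peaks had none of the searched motifs, TGACG included, at their centres (plus strand, GRCm38, chr10:99255626-99255745 and chr10:99243166-99243285).
Dusp6 centre of peak 3057: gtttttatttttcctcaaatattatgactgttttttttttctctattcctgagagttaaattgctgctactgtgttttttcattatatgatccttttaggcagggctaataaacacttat
Dusp6 centre of peak 2653: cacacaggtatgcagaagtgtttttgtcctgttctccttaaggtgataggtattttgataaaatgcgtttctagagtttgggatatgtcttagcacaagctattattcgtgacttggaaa
The lists give no summit, so the middle of a peak need not be its strongest point.

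All 7 V5 peaks at Dusp6 overlapped H3K27ac and 5 overlapped RNAPOL2. Those 5 were the promoter pair and the peaks of score 3057, 1259 and 2653. Whereas the upstream V5 scores were high, the upstream RNAPOL2 scores were low, from 89 to 235, and the RNAPOL2 peak over the gene itself had a score of 5677 (rank 139). It was 9.85 kb wide (chr10:99261071-99270920), covered 100% of the gene and ran 3431 bp past its end. The H3K27ac peak over the gene was 10.75 kb wide with a score of 3696 (rank 508). The gene start lay in a stitched region of 34.13 kb that held 5 H3K27ac, 7 V5 and 5 RNAPOL2 peaks.

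Dusp10 encodes a phosphatase that prefers p38 and JNK to ERK. It lies at chr1:184013302-184075636 on the plus strand (ENSMUSG00000039384.8) and has 2 TSSs, at 184013302 and 184034381. Promoter peaks in all 3 lists lay at the second, internal TSS, which a TSS of the coding gene 1700056E22Rik also adjoins. The V5 score there was 179 (rank 6348), the RNAPOL2 score 2416 (rank 1273) and the H3K27ac score 3239 (rank 742). No V5 promoter peak lay at the outer TSS.

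Upstream of Dusp10, 5 V5 peaks had scores of 153, 921, 3570, 606 and 496 at distances of 8.402, 19.6, 24.9, 43.1 and 46.7 kb from the outer TSS. The score of 3570 (chr1:183987311-183988430, rank 160) was the highest of the 31. Each of these 5 had Dusp10 as the nearest coding gene, and as many V5 peaks within 50 kb as its 6 were reached by 1.31% of coding genes. That count includes the peaks of score 496 and 606, which lie within 50 kb of the outer TSS but not of the internal TSS. The outer TSS had no promoter peak in any list, so the count from the internal TSS alone is lower. None of the 5 overlapped RNAPOL2, and 3 of them, of scores 496, 606 and 153, overlapped no H3K27ac peak. The 3 H3K27ac peaks under the peaks of score 3570 and 921 had scores of 74, 65 and 49, all below the H3K27ac median of 212.

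The peak of score 3570 held TGAGTCA at 2 places, 213 and 508 bp from its middle. It also held TGACG 2 times, 1 of them within the 120 bases at its middle. The promoter peak held TGACATCA, a TGANNTCA match, 82 bp from its middle. The windows around the nearer TGAGTCA and around TGACATCA are shown so that the distal and promoter matches can be compared. The match is in capitals (plus strand, GRCm38, chr1:183988055-183988113 and chr1:184034198-184034257).
Dusp10 distal: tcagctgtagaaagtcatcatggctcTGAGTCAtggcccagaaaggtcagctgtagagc
Dusp10 promoter: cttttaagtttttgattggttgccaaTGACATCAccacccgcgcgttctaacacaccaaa
No peak at Dusp10 held TGACGTCA.

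**Figure D2:**
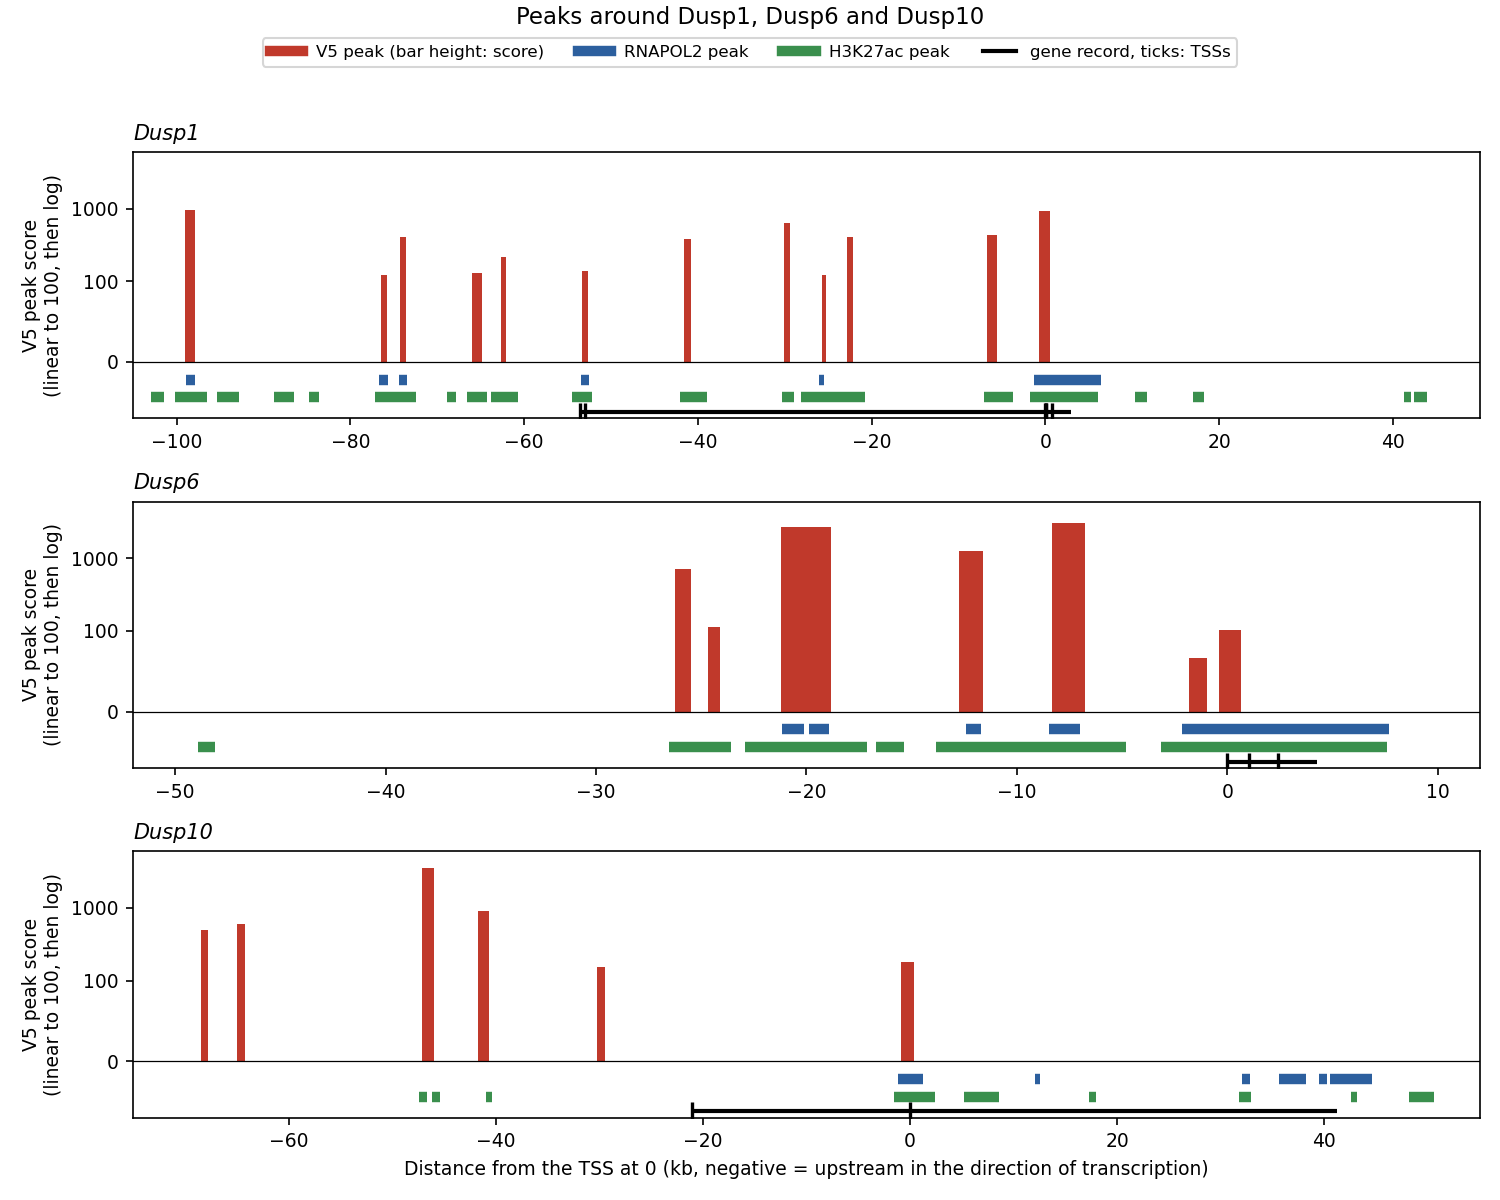
Red bars are V5 peaks of Dusp1, Dusp6 and Dusp10 (bar width is the peak, to scale with a drawn minimum of 0.5 kb, and bar height is the score on an axis that is linear to 100 and then logarithmic), blue and green bars are RNAPOL2 and H3K27ac peaks, the black line is the gene record with ticks at its TSSs, and distance in kb is from the farthest upstream TSS under the highest promoter RNAPOL2 peak. At Dusp6 and Dusp10 the tallest V5 bars, 3057 and 3570, stand upstream of low promoter bars, whereas at Dusp1 the promoter bar of 931 is close to the tallest.

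Dusp5 encodes a nuclear phosphatase of ERK and lies at chr19:53529109-53542431 on the plus strand (ENSMUSG00000034765.6). It had 1 V5 peak, of score 156 (rank 6896), which lay over the TSS, held TGACG 2 times and held neither TGANNTCA nor TGAGTCA. The TSS of an antisense transcript, AC137853.2, lay 155 bp from this peak. The RNAPOL2 score was 838 and the H3K27ac score 281. Dusp4, which encodes another nuclear phosphatase, lies at chr8:34807297-34819894 on the plus strand (ENSMUSG00000031530.6) and had the lowest scores of the 10 in both lists, 233 for RNAPOL2 and 140 for H3K27ac. Its nearest V5 peak lay 146 kb away with a score of 79.

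The Sprouty genes encode adaptors that dampen Ras and ERK signalling downstream of receptor tyrosine kinases. Spry2, at chr14:105891947-105896819 on the minus strand (ENSMUSG00000022114.5), had V5 promoter scores of 94 and 35 and a further V5 peak of score 103, 29.7 kb upstream. That distal peak overlapped neither H3K27ac nor RNAPOL2, and it held both TGACGTCA and the only string among the 31 peaks. The string is shown in capitals and includes TGACGTCA (plus strand, chr14:105926856-105926914, GRCm38).
Spry2 distal: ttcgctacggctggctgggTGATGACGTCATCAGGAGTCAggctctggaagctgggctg
Its 5 units are counted with gaps of at most 5 bp. The RNAPOL2 peak at the Spry2 promoter had a score of 1603 (rank 2645) and the H3K27ac peak a score of 1996 (rank 2135).

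Spry1, at chr3:37639947-37644598 on the plus strand (ENSMUSG00000037211.12), had no V5 peak within 50 kb. Its nearest lay 181 kb away with a score of 113. Spry1 had 2 RNAPOL2 promoter peaks, of scores 448 and 39, and 1 H3K27ac peak of score 334. Spry4, at chr18:38586247-38601415 on the minus strand (ENSMUSG00000024427.7), likewise had no V5 peak within 50 kb, and its nearest lay 182 kb away with a score of 122. The Spry4 promoter scores were 755 for RNAPOL2 and 355 for H3K27ac. Spry1 and Spry4 thus had both marks of an active promoter in the lists with no V5 peak nearby.

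The SPRED proteins bring neurofibromin, which switches off Ras, to the membrane. Spred1, at chr2:117121374-117182279 on the plus strand (ENSMUSG00000027351.14), had 1 V5 peak, of score 174 (rank 6381), over its TSS. Its H3K27ac promoter score of 5058 (rank 171) was the highest of the 10, and 0.807% of coding genes had one at least as high. Its RNAPOL2 score was 1884 (rank 2022), and 5 further RNAPOL2 peaks of scores 39 to 123 lay in its body. Another, of score 147, began at the gene end and ran 7781 bp past it. Spred2, at chr11:19924375-20024026 on the plus strand (ENSMUSG00000045671.17), had no V5 promoter peak. Its only V5 peak within 50 kb had a score of 40 (rank 10536), lay 3.72 kb upstream, just outside the promoter window, and overlapped both other lists. The Spred2 promoter scores were 365 for RNAPOL2 and 1481 for H3K27ac.

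**Figure D3:**
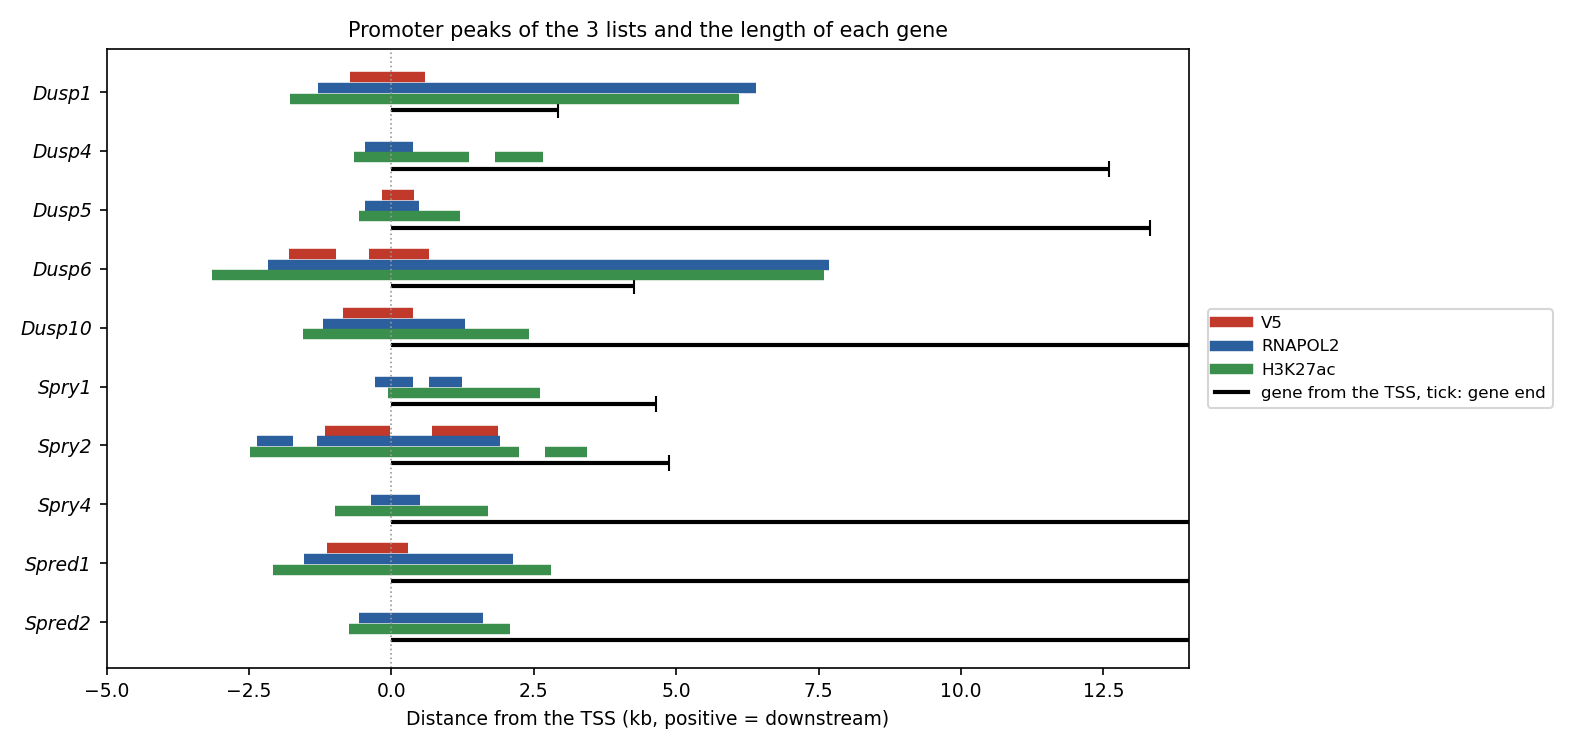
Promoter peaks of V5 (red), RNAPOL2 (blue) and H3K27ac (green) are drawn to scale by distance in kb from the farthest upstream TSS under the highest promoter RNAPOL2 peak, with each gene as a black line and a tick at its end where it lies within the axis. The RNAPOL2 and H3K27ac promoter peaks pass the gene end at Dusp1 and Dusp6 and stop short of it at the other genes. RNAPOL2 peaks outside the promoter window, which are not drawn, pass the gene end at Dusp10 and Spred1.

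The share of the gene record under RNAPOL2 peaks differed widely. It was 100% at Dusp6, 39.2% at Spry2, 20.9% at Spry1, 13.8% at Spred1, 12.6% at Dusp10, 10.05% at Dusp1, 3.69% at Dusp5, 3.33% at Spry4, 3.05% at Dusp4 and 1.62% at Spred2. Over coding genes with an RNAPOL2 promoter peak the median was 3.43% and the upper quartile 11.5%. The value for Dusp1 is over its long record, whereas its 2.93 kb transcript was covered in full. Short genes are covered more easily by a peak of a given width, and Dusp6, Spry1 and Spry2 are the 3 shortest records here, with lengths of 4.26, 4.65 and 4.87 kb.

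The V5 peaks divided unevenly between the families. Of the 31 within 50 kb, 26 lay at DUSP genes, with scores from 67 to 3570 and a median of 402, and 5 lay at Sprouty and SPRED genes, with scores from 35 to 174 and a median of 94. Dusp1, Dusp6 and Dusp10 accounted for 12, 7 and 6 of them. Without the 2 upstream TSSs of Dusp1, 6 peaks lay at Dusp1 and 25 at all the feedback genes. The highest 10% of V5 scores began at 1120, and 4 of the 31 peaks lay there, all upstream of Dusp6 or Dusp10.

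Outside the promoter windows the scores were higher than within them. The 22 V5 peaks in bodies and flanks had a median score of 415, and 14 of them lay above the list median. Over the whole list the median was 253 for peaks outside promoters and 185 for promoter peaks. Those list-wide classes use the TSSs of every annotated gene, whereas the 22 lie outside the windows of their own gene only. The Dusp1 peak of score 955, 301 bp from an Ergic1 TSS, is among the 22 but is a promoter peak in the list-wide classes. All 9 promoter V5 peaks overlapped both H3K27ac and RNAPOL2. Of the 22 others, 18 overlapped H3K27ac and 8 overlapped RNAPOL2. Among the 6335 V5 peaks of the list more than 3 kb from any annotated TSS, the shares were 61.3% and 18.5%. Because the 22 are defined less strictly, these shares are not a matched comparison. Over all 31, 27 overlapped H3K27ac and 17 RNAPOL2, beside 73.4% and 42.0% of all V5 peaks. Neighbouring peaks at a gene are not independent, and 10 of the 22 lay at Dusp1, 5 at Dusp6 and 5 at Dusp10.

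**Figure D4:**
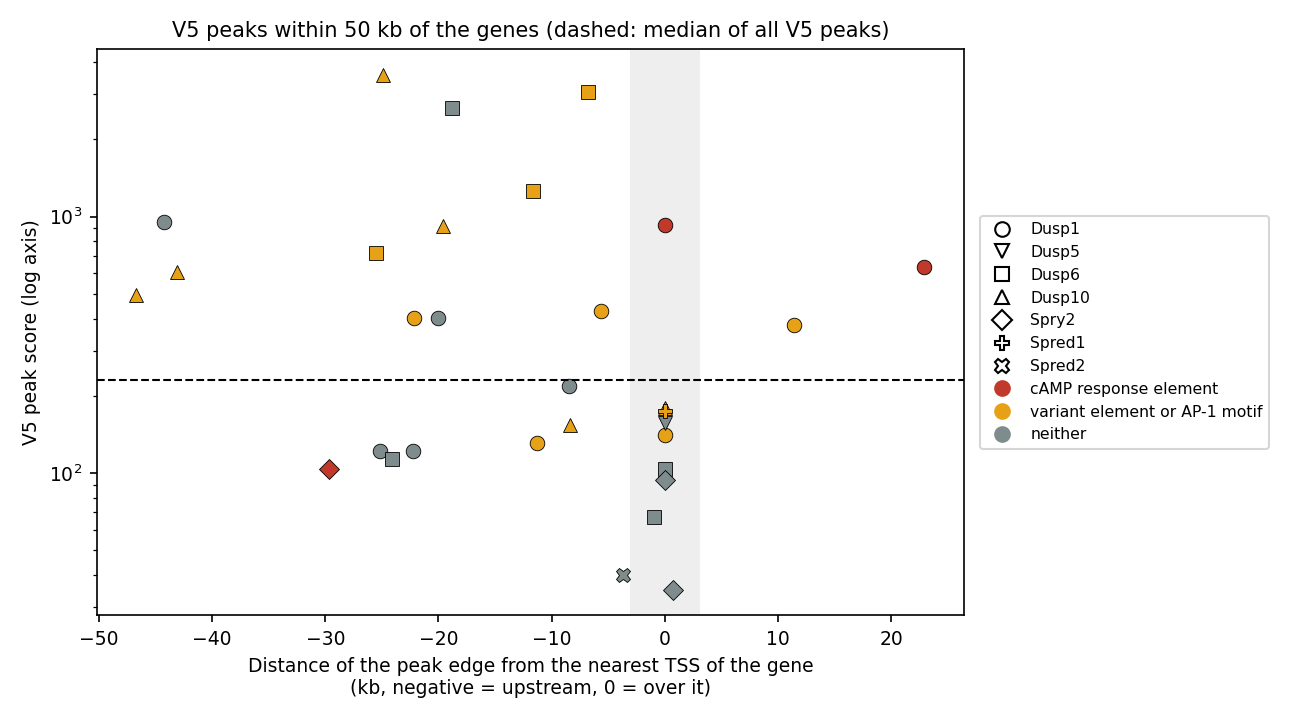
Each point is 1 of the 31 V5 peaks, placed by the distance of its edge from the nearest TSS of the gene (kb, negative upstream) and by its score (log axis), with the shape giving the gene and the colour giving whether the peak holds the cAMP response element, a variant of it or an AP-1 motif, or neither. The grey band is the promoter window and the dashed line the median V5 score of 230, and the points above 1120 all lie upstream of Dusp6 or Dusp10.

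Most other genes of the pathway also had both marks at the promoter, and some of them had a V5 promoter peak. Among 5 other MAP kinase phosphatases, 2 had a V5 promoter peak (Dusp8 at 174 and Dusp16 at 35), and 4 had RNAPOL2 and H3K27ac promoter peaks, with Dusp9 lacking both. Of 9 matched genes of a list of 10 other feedback inhibitors, 3 had a V5 promoter peak and all 9 had both marks. These 3 were Lrig1, an inhibitor of receptor tyrosine kinases, at 3610, Errfi1, an inhibitor of the EGF receptor, at 759, and the Ras GTPase-activating gene Rasal2 at 132. The Errfi1 RNAPOL2 score of 12793 and the Lrig1 V5 score were above those of every DUSP, Sprouty and SPRED promoter here.

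In the ERK cascade itself, all 20 listed genes had RNAPOL2 and H3K27ac promoter peaks and 5 had a V5 promoter peak. They included the phosphatase gene Ptpn11 at 1642, Nras at 1511, Braf at 1494 and the Ras exchange factor Sos1 at 216. Of 11 p38 and JNK pathway kinases, 3 had a V5 promoter peak (Mapk8 at 196, Map2k4 at 142 and Mapk14 at 67), 8 an RNAPOL2 and 9 an H3K27ac promoter peak. Of 9 other genes that ERK induces, 3 had a V5 promoter peak (Ier2 at 376, Egr1 at 113 and Myc at 94) and 8 had both marks, Fosl1 having neither. The counts are read beside the shares of coding genes given above.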

How the data were processed

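Reads from ChIP-seq of mouse tumours were aligned by the authors to mm10 with BWA-MEM 0.7.10-r789, and peaks were called against input by MACS2 2.2.6, in broad mode for H3K27ac, after which denylisted regions were removed. Each deposited list gives peak coordinates and a whole-number score by the authors on an unstated scale. In all 3 lists the smallest width was 500 bp and the smallest gap between peaks 210 bp. Whether nearby calls were merged is not stated, so widths and counts of peaks refer to the lists as given. Per the labels there were 4 samples for each antibody. The study's methods count more of them for V5 and RNAPOL2, and neither source says which samples went into a list or how they were combined. Input samples were not analysed here.

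TSSs of all transcripts came from GENCODE vM21 (GRCm38). A peak that shared at least 1 bp with a window was counted, and ranks were taken within a list. Sequence was read from GRCm38 and from RefSeq tables. No test was run, since each antibody has 1 list, and counts stand beside the same share over 21938 coding genes or all V5 peaks. Alternatives varied windows, TSSs, score limits, motif windows and stitching. The members and gene lists were chosen with earlier results of these data known. All 10 members were named, with other genes named by shared promoters, nearest TSSs of the highest V5 peaks or a V5 promoter peak on a pathway list, of which 1 gene is not reported here. Simulated overlaps, motifs, strings and regions were recovered in 100% of 2000, 500, 500 and 60 cases. Python 3.11.15, numpy 2.4.6, pandas 2.3.3, pysam 0.24.0 and matplotlib 3.10.9 were used.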

Additional observations from a re-analysis of the deposited data

How the results depend on the processing

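The counts of genes with RNAPOL2 and H3K27ac promoter peaks were 9 or 10 under every alternative run. The count with a V5 promoter peak was 5 to 7, except that it was 1 instead of 6 in the upper 50% of V5 peaks by score. With that limit, 3 instead of 7 genes had a V5 peak within 50 kb, and 15 instead of 31 peaks lay there. A window of 20 kb held 19 V5 peaks. A stitching distance of 6 kb left 1 instead of 2 genes with the gene start in a region of at least 3 peaks. Among overlaps and motifs, V5 peaks over RNAPOL2 numbered 10 instead of 17 with the upper 50% of the RNAPOL2 list, and in the central 200 bp TGAGTCA was in 3 instead of 7 peaks and other TGANNTCA in 4 instead of 10. With no gaps allowed, 0 peaks instead of 1 held a string. The stricter limits hold fewer peaks by construction, and 36 other values stayed within 1.5 times their main count. Basic transcripts, and the Dusp1 TSSs without the upstream pair, were alternatives chosen after seeing the data, and they gave 29 and 25 V5 peaks. No replicate could be left out and no paired analysis was possible because each antibody has 1 list. Scores are on an unstated scale, and weak peaks under the authors' threshold are not in the lists.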
